A study of Danio rerio with 30 samples.

Results

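Cytosolic ribosomal protein genes encode the proteins that, together with ribosomal RNA, build the small and the large subunit of the ribosome outside mitochondria. They were taken here by name from the zebrafish symbols of the genes measured: names that begin with rpl or rps and a digit, with at most 1 of the letters a, b, x or y after the number, and rplp0, rplp1, rplp2 and rplp2l. This gave 77 of the 32520 Ensembl genes in the tables, 44 of the large and 33 of the small subunit. All 77 passed the filter on low counts in both experiments. Of the symbols 4 are each carried by 2 of the genes, and those named rpl5 and rps26 are told apart below by their Ensembl IDs. Genes for the proteins usually named rpsa, rps4x, rpl27a and rpl36a were not analysed here under those names.

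The genes were measured in polyadenylated RNA of adult zebrafish retina, in 30 libraries that form 10 groups of 3. In the needle poke experiment all fish were wild type. One group was uninjured and untreated, and the other 3 were poked with a needle through the back of the eye and kept in water with DMSO (the solvent control), PLX3397 (pexidartinib, an inhibitor of the colony-stimulating factor 1 receptor) or ZVAD-fmk (an inhibitor of caspases). No uninjured group received DMSO or a drug. In the NMDA experiment, wild-type fish, csf1ra mutants and csf1rb mutants, which carry changes in the 2 zebrafish copies of that receptor gene, were uninjured or had NMDA, an excitotoxin that kills neurons, injected into the eye. These fish had no drug treatment. Injured retinas were taken 2 days after injury. Mutant alleles, ages in numbers and the number of fish behind each library are not given in the sources used here, so p-values measure the spread between libraries, which may in part be technical.

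Ribosomal proteins are made in near-equal numbers, and their genes are among the most steadily co-expressed in vertebrate cells. Cells that grow and divide raise the output of ribosomes, through RNA polymerases I and III, the assembly factors of the nucleolus and the mTOR pathway, which controls the translation of ribosomal protein mRNAs. In the injured zebrafish retina, Müller glia re-enter the cell cycle and give rise to progenitors that replace lost neurons, while microglia and macrophages collect at the wound.

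The depth of a library was 38933511 to 92198888 counts after the needle poke and in its controls, and 22849708 to 41622168 counts in the experiment with NMDA. Among the needle poke libraries, DMSO replicate 3, PLX3397 replicate 2, ZVAD-fmk replicate 1 and untreated uninjured replicate 2 were set apart from the remaining 2 libraries of the same group, and the results that rest on them are given with and without them. Leaving them out keeps the 2 libraries of each group whose counts were most alike. This lowers the spread by choice, so more genes can be called, and such counts are no independent check. Library titles carry the letters MG, while the extraction notes describe whole retinas, and markers of rods, cones and Müller glia were detected in all groups. Levels of csf1ra were 0.162 to 0.316 CPM (counts scaled to library size with TMM factors) in uninjured csf1ra mutants and 3.92 to 4.34 CPM in uninjured wild type. In uninjured csf1rb mutants csf1ra was also below wild type, at 1.03 to 1.89 CPM. After NMDA it was 1.27 to 1.45 CPM in csf1ra mutants, 3.3 to 4.13 CPM in csf1rb mutants and 6.68 to 7.47 CPM in wild type. Levels of csf1rb were low in wild type as well, at 0.33 to 0.793 CPM, against 0.0573 to 0.37 CPM in uninjured csf1rb mutants, which overlap. After NMDA csf1rb was 0 to 0.0353 CPM in csf1rb mutants, 0.0705 to 0.142 CPM in csf1ra mutants and 0.268 to 0.373 CPM in wild type, without overlap. The deposited tables were compared only within an experiment, so the 2 experiments are set side by side and never tested against each other.

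In the uninjured wild-type retina the ribosomal protein genes together took about the same small share of all gene counts in the 2 experiments. The share was 0.989%, 0.892% and 0.99% in the untreated uninjured libraries of the needle poke experiment, and 0.968%, 1.05% and 0.944% in the wild-type uninjured libraries of the NMDA experiment. Exact 95% binomial intervals around these shares were narrow, 0.8896% to 0.8941% for the lowest of them, and cover counting error only. The share is therefore known far more closely within a library than between libraries. The large subunit held 1.53 to 1.67 times the counts of the small subunit in all 30 libraries. This ratio was lower after NMDA without overlap in csf1ra mutants (1.59 to 1.67 uninjured, 1.54 to 1.55 after NMDA). The same held in csf1rb mutants (1.61 to 1.62 and 1.53 to 1.55). In wild type the ranges met at the rounding given (1.6 to 1.63 and 1.57 to 1.6), and those of the needle poke groups overlapped. The difference was not tested.

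After either injury the share was higher in every injured library than in any uninjured library of the same experiment. It was 2.73%, 2.75% and 3.67% after the poke with DMSO, 1.28%, 1.79% and 1.39% with PLX3397, and 2.35%, 2.38% and 2.29% with ZVAD-fmk. The PLX3397 libraries lay between the uninjured and the DMSO libraries without overlap. The ZVAD-fmk libraries lay between those with PLX3397 and those with DMSO. Shares do not use the TMM factors. With them, the mean log2 CPM of the genes was 6.8, 6.82 and 6.81 uninjured and 6.86, 7.44 and 6.9 with PLX3397. It was 8.1, 8.13 and 8.64 with DMSO and 7.91, 7.81 and 7.75 with ZVAD-fmk. The order was the same, but PLX3397 replicates 1 and 3 then lay close to the uninjured libraries. After NMDA the share was 6.1%, 6.48% and 6.26% in wild type. It was 7.4%, 8% and 6.55% in csf1ra mutants, and 5.85%, 6.15% and 6.29% in csf1rb mutants. In the uninjured mutants it was 1.23%, 0.937% and 1.58% for csf1ra and 1.25%, 1.16% and 1.12% for csf1rb. The uninjured csf1ra libraries had the widest relative spread of the 10 groups, with a mean of 1.25% ± 0.321 (SD, n = 3).

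**Figure D1:**
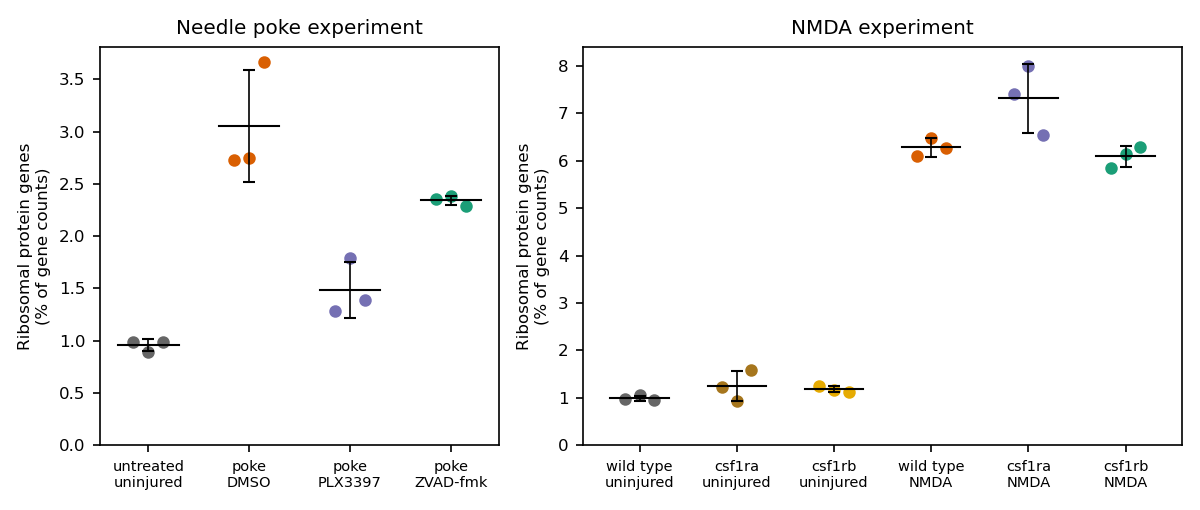
Share of gene counts in the 77 ribosomal protein genes, in percent, for each library (points), with the group mean (line) and SD (bar, n = 3), in the needle poke experiment (left) and the NMDA experiment (right). Uninjured groups lie between 0.892% and 1.58%, and injured groups between 1.28% and 8%.

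Nearly all ribosomal protein genes rose after the needle poke. In DMSO-treated poked retinas against untreated uninjured ones, 75 of 77 were higher and none lower at an adjusted p under 0.05 (edgeR quasi-likelihood F test, two-sided, Benjamini-Hochberg over all 21334 genes tested), against 18.2% of all genes called higher and 13.4% called lower. Their median log2 fold change was 1.52, and that of all genes tested was -0.03. For 76 of 77 every DMSO library lay above every uninjured library, which held for 22.3% of all genes, and for none did every DMSO library lie below, which held for 20.3%. Without the 4 libraries set apart 76 genes were called higher, with a median of 1.34. The injured group also received DMSO and the uninjured group did not, so poke and solvent cannot be told apart. In RNA from a mix of cell types, a change in the number of cells of a type and a change in RNA per cell cannot be told apart either.

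The large subunit gave 43 of 44 genes higher with a median of 1.5, and the small subunit 32 of 33 with a median of 1.53. Most members lay close together, since the 10th and 90th percentiles of the 77 changes were 1.33 and 1.77. The standard error of a single gene was 0.15 to 0.23, which is close to the width of this spread on either side of the median.

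The largest rise was that of rplp2l, a gene for the P2 protein of the acidic stalk, which draws elongation factors to the large subunit. It was 54.2 CPM ± 2.11 (SD, n = 3) in uninjured libraries and 244, 257 and 363 CPM with DMSO, a log2 fold change of 2.41 ± 0.21 (SE, edgeR adjusted p = 2.5e-06). DMSO replicate 3 was the highest library, and the groups did not overlap. Other large rises were those of rps12 at 1.86, rps26 (ENSDARG00000030408) at 1.85 and rplp1, which encodes the partner of P2 in the stalk, at 1.82. The smallest rises among the called genes were those of rps27.1 at 1.02, rps27.2 at 1.1, rpl30 at 1.2, rpl22 at 1.26 and rps24 at 1.29.

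Among the 2 genes not called was rplp2. Levels of rplp2 were 27.9 CPM ± 2.23 (SD, n = 3) in uninjured libraries and 34.9, 31.2 and 51.3 CPM with DMSO, a log2 fold change of 0.49 ± 0.21 (SE, edgeR adjusted p = 0.092). The groups did not overlap, and the gene was called when the counts were scaled by library totals alone (0.62, edgeR adjusted p = 0.018) and without the 4 libraries that stood apart (0.33, edgeR adjusted p = 0.035).

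Members with known roles beyond the ribosome's frame rose with the rest. The gene rps6, whose protein is phosphorylated by the S6 kinases of the mTOR pathway, rose by 1.78 ± 0.19 (SE) on the log2 scale. The genes of Rpl5 and Rpl11, which in mammals bind Mdm2 when ribosome assembly is disturbed, rose by 1.75 for rpl5 (ENSDARG00000020197), 1.43 for rpl5 (ENSDARG00000015862) and 1.35 for rpl11. The stalk base gene rplp0 rose by 1.67, and rps27a, which encodes a fusion of ubiquitin with a small-subunit protein, by 1.54. All 6 were called, with edgeR adjusted p from 1.3e-05 for rps6 to 0.00024 for rpl11.

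**Figure D2:**
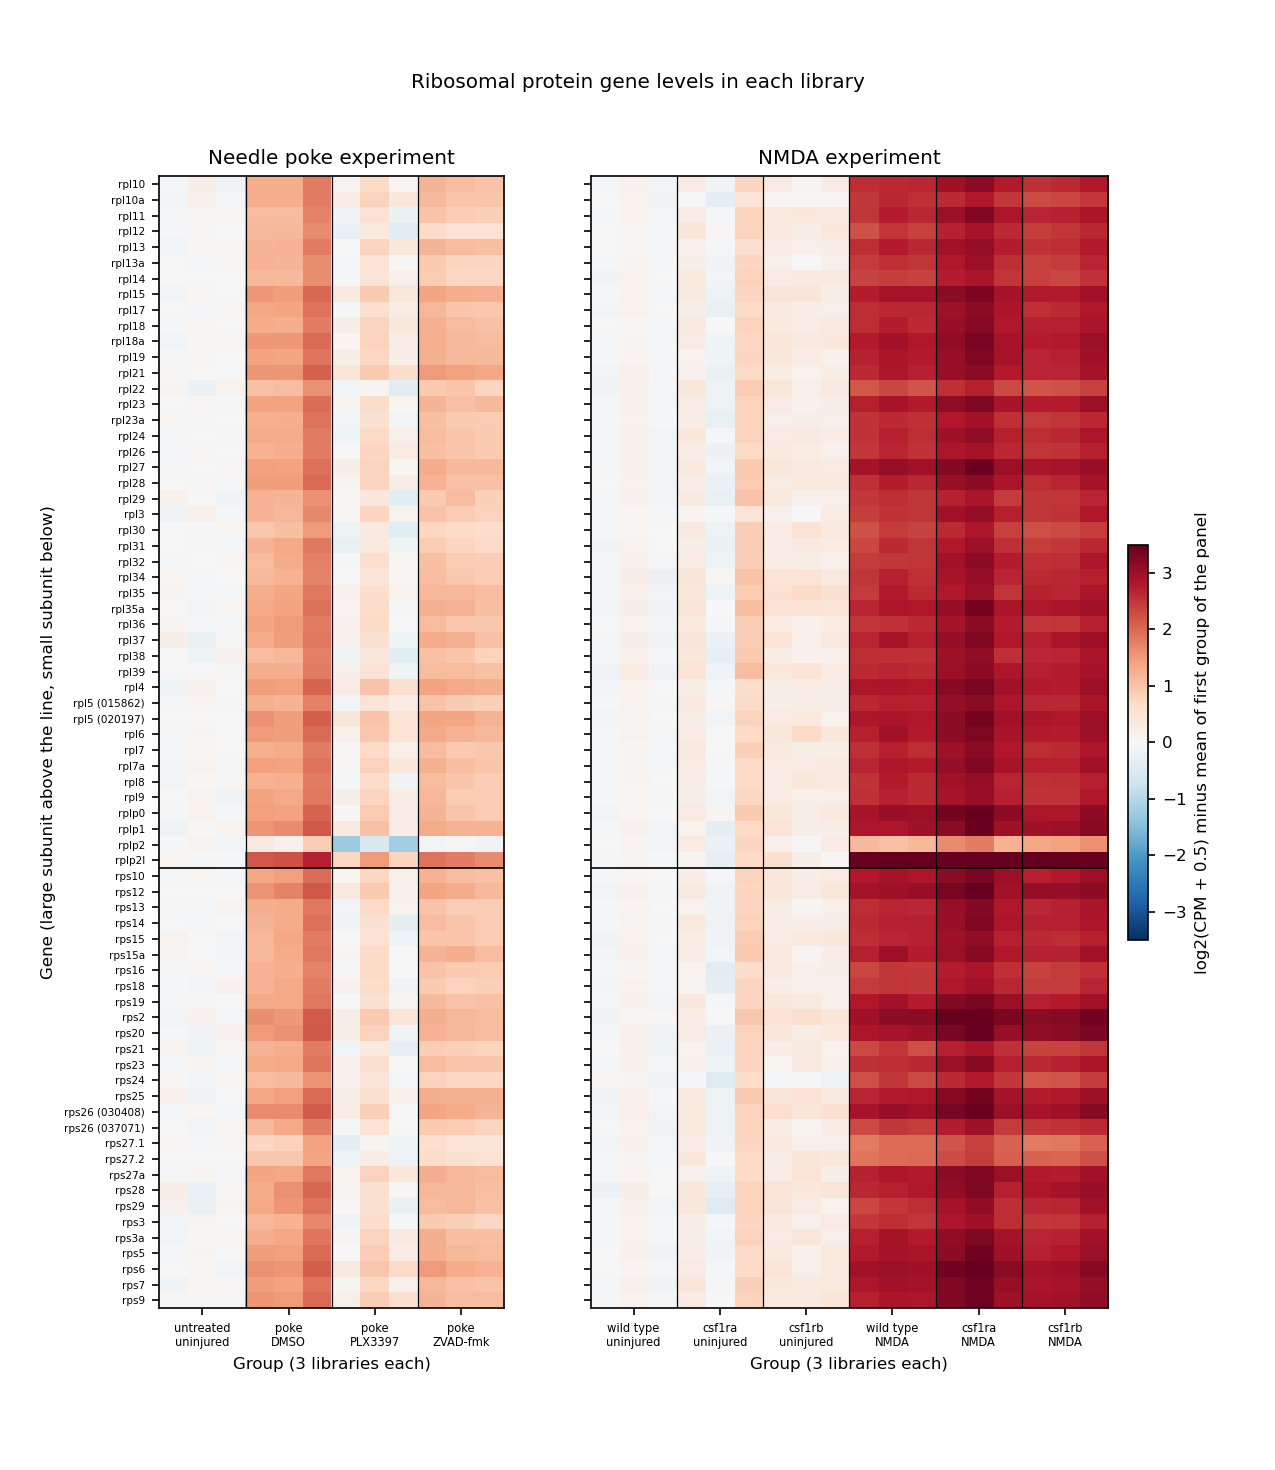
Level of 72 of the 77 genes (rows) in each of the 30 libraries (columns), as log2(CPM + 0.5) minus the mean of the uninjured wild-type group at the left of each panel. Nearly all rows are red in the DMSO, ZVAD-fmk and NMDA columns and paler with PLX3397, and rplp2 is blue with PLX3397. The numbers after a shared symbol are the last digits of the Ensembl ID.

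With PLX3397, nearly the whole set was lower than with DMSO. Of the 77 genes 76 fell and none rose (edgeR), against 17.7% of all genes called lower and 16.5% called higher, and every PLX3397 library lay below every DMSO library for 76 genes, which held for 23.8% of all genes. The median log2 fold change was -1.22, against -0.01 over all genes. All 44 large-subunit genes fell. Without the 4 libraries that stood apart the count was again 76, and the median -1.24.

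The 10th and 90th percentiles of the 77 changes were -1.42 and -1.07. The largest fall was that of rpl31, a large-subunit gene. It was 233, 249 and 359 CPM with DMSO and 83.2, 127 and 88.7 CPM with PLX3397, and fell by 1.49 ± 0.19 on the log2 scale (SE, edgeR adjusted p = 7.8e-05). PLX3397 replicate 2 was the highest of the treated libraries and still lay below all DMSO libraries. Next came rplp2 at -1.47, rps29 at -1.46, rps20 at -1.45 and rps21 at -1.44. The smallest falls were those of rpl10a at -0.96, rpl18 at -1.01, rpl13 at -1.02, and rpl3 and rpl4 at -1.04.

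Levels of rplp2 with PLX3397 were 11.5, 19 and 11.7 CPM, below all 3 uninjured libraries as well. Levels of rplp2l with PLX3397 were 89.2, 153 and 90.8 CPM, between the uninjured and the DMSO libraries.

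With ZVAD-fmk the genes were lower than with DMSO by a smaller amount, and most did not pass the test. Of the 77 genes 16 fell and none rose (edgeR), against 8.96% of all genes called lower and 9.70% called higher. The median was -0.50, against -0.02 over all genes, and all 77 estimates were below 0. Every ZVAD-fmk library lay below every DMSO library for 73 genes, which held for 21.7% of all genes, and for none did every ZVAD-fmk library lie above, which held for 22.8%. The count of 16 is not stable: it was 59 without the 4 libraries that stood apart (median -0.34), 1 without DMSO replicate 3, 2 without ZVAD-fmk replicate 1, and 0 without ZVAD-fmk replicate 2 or without ZVAD-fmk replicate 3.

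The largest falls were those of rpl12, at 345, 353 and 498 CPM with DMSO and 252, 224 and 221 CPM with ZVAD-fmk (log2 fold change -0.78 ± 0.19 SE, edgeR adjusted p = 0.012), and rpl31 at -0.73. Then followed rps18 at -0.63 and rps21 at -0.62, and the smallest called falls were those of rps27.1 at -0.51, and rps27.2, rps23 and rps24 at -0.54. For rpl12 the groups did not overlap, and DMSO replicate 3 was again the highest library.

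The 2 inhibitors were also compared with each other. With PLX3397, 59 of 77 genes were lower than with ZVAD-fmk and none higher (edgeR), against 4.81% of all genes called lower and 3.43% called higher, with a median of -0.74 against 0.01 over all genes. Every PLX3397 library lay below every ZVAD-fmk library for 75 genes, which held for 18.7% of all genes. The largest differences were those of rpl37 and rpl22 at -1.01, rpl38 and rps25 at -0.96 and rps29 at -0.95, and the smallest called were those of rps24 at -0.54, rpl14 at -0.57, rps27.2 at -0.59, rps27.1 at -0.63 and rpl13a at -0.64. For rpl22, levels were 53.4, 61.5 and 43.7 CPM with PLX3397 and 109, 114 and 97.4 CPM with ZVAD-fmk. Leaving out 1 library at a time moved the count from 59 to 7 without PLX3397 replicate 1, to 3 without PLX3397 replicate 3, to 3 without ZVAD-fmk replicate 1 or replicate 2, and to 10 without ZVAD-fmk replicate 3. Over all such fits, with that without PLX3397 replicate 2 included, the count ran from 3 to 76. Without the 4 libraries that stood apart, which leaves the 2 most alike libraries of each group, it was 76, with a median of -0.88.

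Markers of several cell types changed between the groups of this experiment as well. The summed level of 17 proliferation genes was 95.9 to 117 CPM in uninjured, 2130 to 2660 CPM in DMSO, 703 to 1230 CPM in PLX3397 and 923 to 1000 CPM in ZVAD-fmk libraries, and 16 of the 17 rose after the poke with DMSO. Within the PLX3397 group, replicate 2 had the highest proliferation sum and the highest ribosomal protein share. Microglia and macrophage genes summed to 181 to 242 CPM in uninjured, 375 to 1040 CPM in DMSO, 186 to 200 CPM in PLX3397 and 238 to 265 CPM in ZVAD-fmk libraries. Of the 32 genes of that list 28 were tested, 20 of them rose after the poke and 22 fell with PLX3397, and copies of mfap4 or mpeg1 had no counts in each group, as had c1qa in the uninjured group. DMSO replicate 3, with the largest ribosomal protein share, had the sum of 1040 CPM, and the other 2 DMSO libraries had 375 CPM each. DMSO replicate 3 also had a summed level of neutrophil and lymphocyte genes of 110 CPM, against 6.94 and 8.67 CPM in the other 2. Rod genes summed to 4390 to 5900 CPM uninjured and 4960 to 6160 CPM with DMSO, with none of 16 called (edgeR, 1 at an unadjusted p under 0.05), and 14 fell with PLX3397 and 12 with ZVAD-fmk. Cone genes summed to 13900 to 14800 CPM uninjured and 12700 to 17200 CPM with DMSO. With PLX3397 they summed to 6110 to 8000 CPM and with ZVAD-fmk to 4640 to 6390 CPM. Müller glia genes summed to 30500 to 48700 CPM uninjured and 25300 to 28000 CPM with DMSO. Their sums were 18300 to 24300 CPM with PLX3397 and 25800 to 27300 CPM with ZVAD-fmk. Of all genes, 18.2% were called higher and 13.4% lower after the poke with DMSO. The shares of all genes called lower were 17.7% with PLX3397 and 8.96% with ZVAD-fmk. The part of the cell types named here in the ribosomal protein values was not tested.

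After NMDA every ribosomal protein gene of the wild-type retina changed. Of the 77 genes 76 rose and 1 fell (edgeR, over 20254 genes tested), against 35.6% of all genes called higher and 34.3% called lower. The median log2 fold change was 2.64, against 0.01 over all genes. Every NMDA library lay above every uninjured library for 76 genes, which held for 39.5% of all genes, and below for 1, which held for 38.1%. The 10th and 90th percentiles of the changes were 2.38 and 2.97. In csf1ra mutants 76 rose and 1 fell, with a median of 2.64 (36.4% and 37.1% of all genes called higher and lower; 36.2% and 35.7% without overlap above and below). In csf1rb mutants 76 rose and 1 fell, with a median of 2.44 (37.0% and 33.5% of all genes called; 39.8% and 36.1% without overlap).

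The largest rise in wild type was again that of rplp2l, from 46.6, 51.3 and 45.1 CPM to 529, 597 and 552 CPM, a log2 fold change of 3.55 ± 0.22 (SE, edgeR adjusted p = 2.7e-10). It was also the largest in csf1ra mutants at 3.72 and in csf1rb mutants at 3.46. Other large rises in wild type were those of rps2 at 3.09 and of rps12 and rplp0 at 2.98. For rps2, which had the highest mean CPM of the set in both experiments, levels were 237, 272 and 267 CPM uninjured and 2010, 2280 and 2300 CPM after NMDA in wild type. Transcript lengths were not used, so CPM values do not rank different genes by molecule number. By mean CPM the lowest in the needle poke experiment was rpl29, at 14.6, 13.1 and 11.6 CPM uninjured and 31, 30.4 and 40.6 CPM with DMSO.

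The smallest rises were those of rplp2, rps27.1, rps27.2 and rpl22. Levels of rplp2 rose from 40.1, 42.7 and 37.7 CPM to 88, 81.9 and 90.6 CPM, a log2 fold change of 1.11 ± 0.19 (SE, edgeR adjusted p = 5e-05), with 1.26 in csf1ra and 1.31 in csf1rb mutants. The rise was 1.91 for rps27.1, 1.94 for rps27.2 and 2.24 for rpl22, whose protein is not needed for translation as such in mammals. Among the other genes named for their roles, rps6 rose by 2.97, rpl5 by 2.83 (ENSDARG00000020197) and 2.69 (ENSDARG00000015862), rpl11 by 2.64, rplp1 by 2.88 and rps27a by 2.77.

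The mutants gave nearly the same genes at both ends of the order. In csf1ra mutants large rises beside rplp2l were those of rps2 at 3.09, rps6 at 3.04 and rps20 at 3.00, and in csf1rb mutants those of rps20 at 2.87, rps2 at 2.76 and rplp1 at 2.75. The smallest after rplp2 were those of rps27.1 at 1.88, rps27.2 at 1.90, rpl22 at 2.11 and rpl30 at 2.22 in csf1ra mutants, and of rps27.1 at 1.70, rps27.2 at 1.77, rpl30 at 1.97 and rpl22 at 1.99 in csf1rb mutants.

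The levels of rps6 show the shared pattern by library. It was 143, 154 and 139 CPM in uninjured wild type and 1120, 1170 and 1130 CPM after NMDA. In csf1ra mutants it was 178, 140 and 236 CPM uninjured and 1510, 1740 and 1300 CPM after NMDA, and in csf1rb mutants 200, 165 and 179 CPM and 1100, 1130 and 1330 CPM. All 9 NMDA libraries lay above all 9 uninjured ones, while the uninjured libraries of csf1ra mutants overlapped with those of wild type. After the poke rps6 was 562, 540 and 808 CPM with DMSO, 230, 354 and 295 CPM with PLX3397 and 525, 460 and 429 CPM with ZVAD-fmk, against 187, 196 and 174 CPM uninjured, so that the 4 groups did not overlap.

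**Figure D3:**
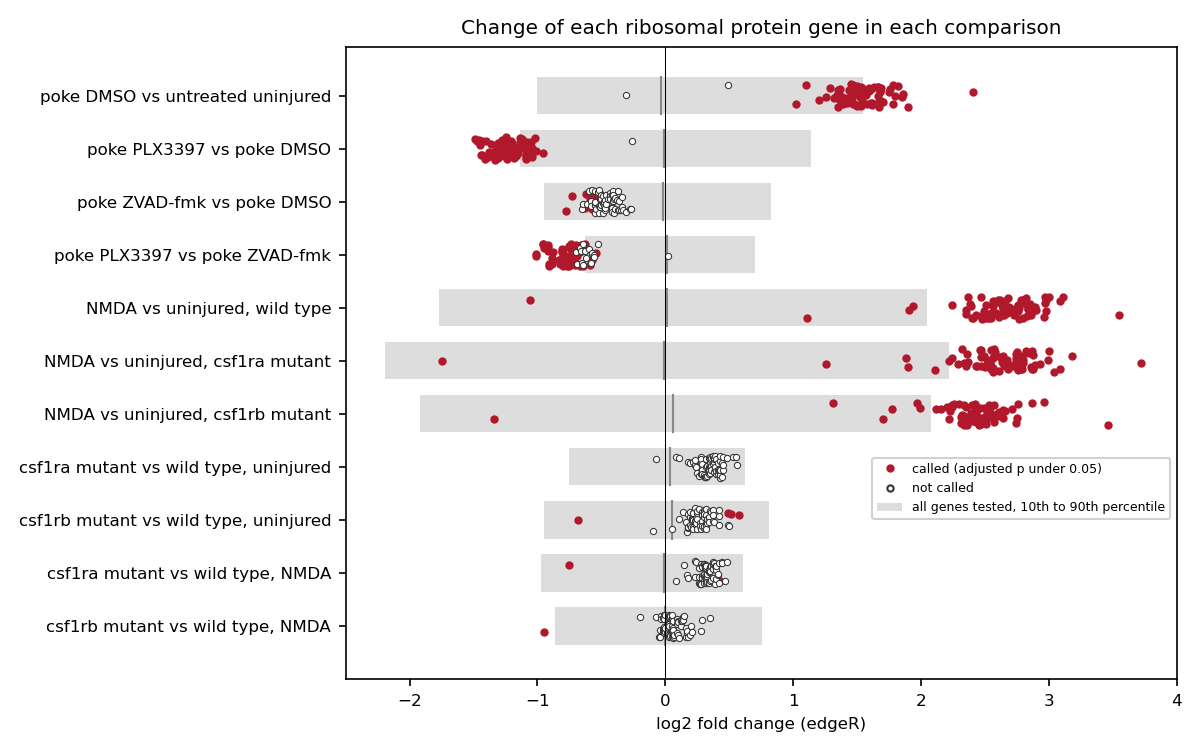
Log2 fold change of each of the 77 genes (points) in 11 comparisons, with called genes filled, over the 10th to 90th percentile (grey bar) and the median (grey line) of all genes tested. After the poke with DMSO the median of the 77 is 1.52, and after NMDA in wild type it is 2.64.

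Genes that share a symbol or a name stem did not always move alike. The count of rplp2 made up 32.3% to 36.4% of the sum of rplp2 and rplp2l in untreated uninjured libraries and 10.8% to 12.5% after the poke with DMSO, 11% to 11.5% with PLX3397 and 11.3% to 13.1% with ZVAD-fmk. In wild type of the NMDA experiment it was 45.4% to 46.3% uninjured and 12.1% to 14.3% after NMDA. The injured and the uninjured libraries were thus apart in both experiments, and the PLX3397 libraries, with less of both genes, lay within the range of the DMSO libraries.

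For rps26, the copy ENSDARG00000030408 held 59.8% to 62.6% in uninjured and 69.8% to 70.5% in NMDA-injured wild type. It held 60.1% to 65.2% in untreated uninjured and 67.4% to 70.1% in DMSO libraries of the needle poke experiment. This share thus shifted without overlap after NMDA in wild type and after the poke with DMSO. The shares of this copy with PLX3397 and ZVAD-fmk are not given here. In wild type of the NMDA experiment this copy went from 51.3, 62.7 and 52 CPM uninjured to 409, 458 and 430 CPM after NMDA. The copy ENSDARG00000037071 went from 34.5, 37.4 and 31.2 CPM to 171, 191 and 185 CPM. The log2 fold changes were 2.96 ± 0.20 and 2.41 ± 0.19 (SE), and both genes were called.

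In contrast, rps27.1 held 45.8% to 47.8% of the counts of rps27.1 and rps27.2 in uninjured wild type and 45.5% to 46.6% after NMDA, which overlap. For rpl5, the copy ENSDARG00000015862 held 50.9% or more uninjured and 49.7% to 52% after NMDA in csf1ra mutants, which overlap, and in csf1rb mutants 50.8% to 54.1% and 49.3% to 50.8%, which meet at the rounding given. In wild type it held up to 53.3% uninjured and 50% to 51.2% after NMDA, and every uninjured library lay above every NMDA library. In the needle poke experiment it held 58.6% to 60.7% in untreated uninjured and 53.7% to 55% in DMSO libraries, also without overlap. In wild-type fish the share of this rpl5 copy was thus lower after NMDA and after the poke with DMSO. That of rps27.1 overlapped in the NMDA experiment, and its share in the needle poke experiment is not given here. RSEM divides reads that match near-identical genes between them by estimation, so the shares within a pair are less certain than the sum of the pair.

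**Figure D4:**
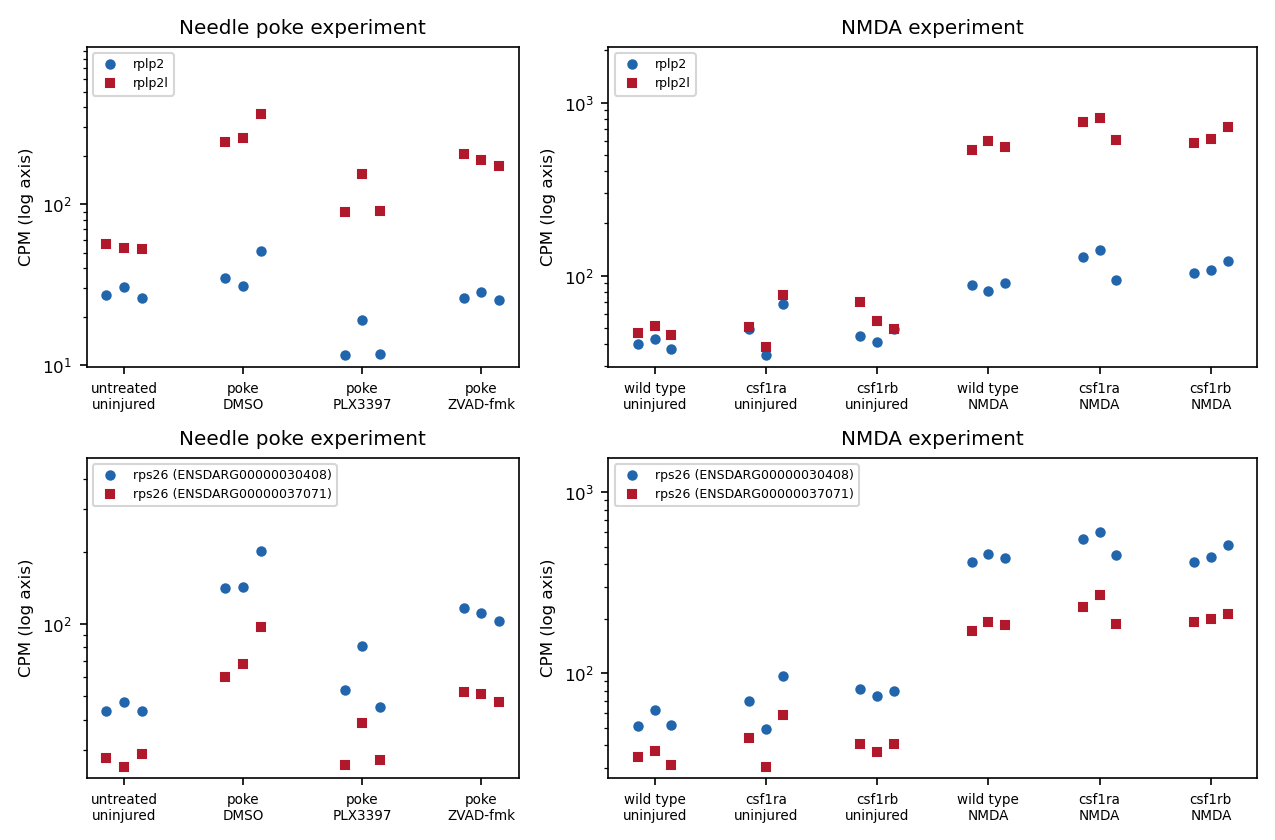
CPM on a log axis in each library for rplp2 and rplp2l (top) and for both genes named rps26 (bottom), in the needle poke (left) and NMDA (right) experiments. In NMDA-injured wild type rplp2l lies at 529 to 597 CPM and rplp2 at 81.9 to 90.6 CPM, and the copies of rps26 lie at 409 to 458 CPM and 171 to 191 CPM.

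The order of the genes by change was similar after poke and NMDA. Across the 77 genes, Pearson's r between the log2 fold changes of the poke with DMSO and of NMDA in wild type, which share no libraries, was 0.95 and Spearman's rho 0.85. Without 5 genes far from the median, among them rplp2, rplp2l, rps27.1 and rps27.2, a set chosen after their values were seen, r was 0.84 and rho 0.82 over 72 genes. Of the 77 genes 31 were above and 28 below the median of the set in both. Genes are not independent replicates, and the same counting of reads from paralogs enters both experiments.

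**Figure D5:**
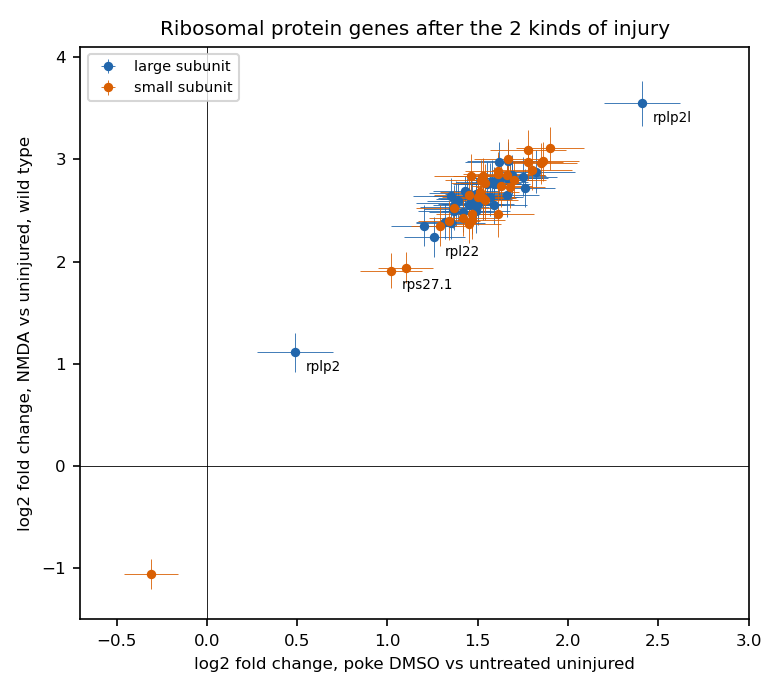
Log2 fold change after the poke with DMSO (horizontal) against that after NMDA in wild type (vertical) for each of the 77 genes, coloured by subunit, with bars of 1 SE. Pearson's r was 0.95, with rplp2l at the upper right (2.41 and 3.55).

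Few of the genes were called different between mutants and wild type. In uninjured csf1ra mutants no gene was called higher or lower (edgeR), 31 had an unadjusted p under 0.05, and DESeq2 called 3 higher, while 7.94% and 6.74% of all genes were called higher and lower. The median was 0.36, against 0.04 over all genes. Single libraries weighed heavily here: without csf1ra replicate 4, which had the lowest share, 69 genes were called higher, and leaving out 1 library at a time moved the median between 0.08 and 0.55. In uninjured csf1rb mutants 3 genes were higher and 1 lower, against 14.5% and 12.4% of all genes. The median was 0.29, against 0.05, and every csf1rb library lay above every wild-type library for 59 of 77 genes, which held for 28.2% of all genes.

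The 3 genes called higher in uninjured csf1rb mutants were rpl35 at 0.58 (edgeR adjusted p = 0.035), rps26 (ENSDARG00000030408) at 0.51 and rpl6 at 0.49 (edgeR adjusted p = 0.034). For rps26 the edgeR adjusted p was 0.05 as rounded, at the threshold. Leaving out any 1 library left at most 1 such call. In the comparison of uninjured csf1rb mutants with wild type 14 of 16 proliferation genes were higher, and 14 of 16 rod genes were lower and 1 higher. Of all genes, 14.5% were called higher and 12.4% lower there. In uninjured csf1ra mutants 8 of 16 rod genes were lower, against 6.74% of all genes. The part of these marker genes in the values above was not tested.

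After NMDA, csf1ra mutants had 1 gene higher and 1 lower than wild type after NMDA (edgeR), against 9.24% and 13.2% of all genes, and DESeq2 called 13 higher. The median was 0.32, against -0.01 over all genes, and every csf1ra library lay above every wild-type library for 51 of 77 genes, against 21.1% of all genes. The gene called higher was rpl3, part of the core of the large subunit, at 2440, 2690 and 2090 CPM in csf1ra mutants and 1710, 1840 and 1800 CPM in wild type (log2 fold change 0.43 ± 0.14 SE, edgeR adjusted p = 0.038). Its groups did not overlap, but the call was lost when library totals alone set the scale and in 5 of the 6 fits that leave out 1 library. In this comparison 13 of 16 rod genes were lower as well. In csf1rb mutants after NMDA none was higher and 1 lower, against 11.9% and 11.4% of all genes, with a median of 0.05, against 0 over all genes. Both mutants were compared with the same wild-type libraries. For csf1rb the sign of the median depended on the scaling, since it was -0.05 when library totals alone were used.

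Whether the response to NMDA itself differed by genotype was tested by the interaction. For csf1ra no gene was called by edgeR, 1 had an unadjusted p under 0.05, and DESeq2 called 1 lower, while 2.56% and 3.27% of all genes were called higher and lower. The 10th and 90th percentiles of the estimates were -0.16 and 0.11, with standard errors of 0.20 to 0.31. For csf1rb no gene was called by edgeR or DESeq2, none had an unadjusted p under 0.05, and 4.1% and 4.07% of all genes were called higher and lower. The median of its estimates was -0.21, against -0.04 over all genes, and -0.28 to -0.17 when 1 library was left out. Most estimates were negative, and they ran from -0.47 to 0.19, with standard errors of 0.20 to 0.30. A difference of the size of these errors was not detectable with 3 libraries a group, and larger ones could also go uncalled.

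In the NMDA experiment the proliferation genes summed to 60.1 to 67.9 CPM in uninjured and 4690 to 4800 CPM in NMDA-injured wild type, 4360 to 5440 CPM in csf1ra and 3580 to 4230 CPM in csf1rb mutants after NMDA. All 16 tested rose in each genotype. The microglia and macrophage list summed to 135 to 158 CPM in uninjured and 232 to 274 CPM in NMDA-injured wild type, but to 70.8 to 82.8 and 61.8 to 70.1 CPM in uninjured, and 130 to 163 and 98.9 to 112 CPM in NMDA-injured, csf1ra and csf1rb mutants. After NMDA the mutants thus had less of these markers than wild type, at ribosomal protein shares of 7.32% ± 0.731 (csf1ra) and 6.1% ± 0.228 (csf1rb) against 6.28% ± 0.189 in wild type (SD, n = 3 each). Of the list's 32 genes 24 were tested, and in NMDA-injured wild type 1 copy of mfap4 had no counts. Rod genes summed to 15800 to 18000 CPM in uninjured and 3720 to 6470 CPM in NMDA-injured wild type, and 14 of 16 tested fell. Amacrine cell genes went from 4650 to 4960 CPM to 1220 to 1410 CPM (10 of 11 fell), cone genes from 7860 to 10000 CPM to 2790 to 5190 CPM (11 of 15 fell), and Müller glia genes from 18300 to 21100 CPM to 7970 to 13000 CPM (9 of 15 fell and 5 rose). The summed level was higher after NMDA for the list of pigment cells, 39.6 to 49.8 CPM against 165 to 243 CPM, with 1 of 9 genes higher and 3 lower. It was also higher for lens and cornea, 296 to 411 CPM against 812 to 899 CPM, with 2 of 5 genes higher and 3 lower. Of all genes, 35.6% were called higher and 34.3% lower after NMDA in wild type. The shares were 36.4% and 37.1% in csf1ra mutants, and 37.0% and 33.5% in csf1rb mutants. The 5 Müller glia genes that rose, the 3 pigment cell genes that were lower and the 2 lens and cornea genes that were higher were near these shares. The part of the cell types named here in the ribosomal protein share was not tested.

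Genes of related function moved with the set after injury, to different degrees. The genes fau, whose product is processed into a ribosomal protein, and rack1, which encodes a protein bound to the small subunit, rose after the poke with DMSO (1.47 and 1.53), fell with PLX3397 (-1.24 and -1.09) and rose after NMDA in wild type (2.33 and 2.86). Of the names close to the set that the rule left out, rps4y2, the symbol of an S4 protein gene, rose by 1.72 after the poke and 2.81 after NMDA and fell by 1.14 with PLX3397. The corresponding values were 1.60, 2.78 and -1.06 for rpl36al, 2.06, 2.95 and -1.16 for rpl22l1, and 1.72, 2.97 and -0.68 for rpl7l1. Those of rps19bp1 were smaller after injury, at 0.49, 1.1 and -0.72, and rps27l was not called after the poke (0.86, edgeR adjusted p = 0.1) and gave 2.26 and -1.71. Also left out were 11 genes of rps6 kinases.

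Of 120 genes for ribosome biogenesis, 110 rose and 1 fell after the poke with DMSO, with a median log2 fold change of 1.21 (18.2% and 13.4% of all genes), and 116 rose and 2 fell after NMDA in wild type, with a median of 2.00 (35.6% and 34.3% of all genes). The largest rises were those of npm1a, a nucleolar chaperone, at 3.27 and 4.28, and pop1, a subunit of RNase P and RNase MRP, at 2.98 and 4.20. The genes that fell were ubtfl (-0.27) after the poke, and ubtfl (-0.67) and ubtf (-0.30), which encodes a factor of RNA polymerase I, after NMDA. In csf1ra mutants after NMDA 18 of the 120 were higher than in wild type and none lower (9.24% and 13.2% of all genes), led by rpf2 at 0.72 and mak16 at 0.70.

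With PLX3397 the biogenesis genes differed from the ribosomal protein genes in count. Of the 120 genes 32 fell and 5 rose (17.7% and 16.5% of all genes), with a median of -0.21, while 76 of 77 ribosomal protein genes fell with a median of -1.22. The largest falls were those of nsa2 at -0.99 and rsl24d1 at -0.96, both factors of large-subunit assembly, and mdn1, an ATPase of the same pathway, rose by 1.13 and heatr1 by 0.78. With ZVAD-fmk 15 rose and 2 fell (9.70% and 8.96% of all genes), with a median of 0.13, while 16 ribosomal protein genes fell. The largest of these rises were those of pop1 at 0.93 and mdn1 at 0.87, and the falls those of nsa2 at -0.47 and senp3b at -0.44. The difference between the 2 gene sets was not tested.

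Of the subunits and factors of RNA polymerases I and III, 16 of 29 rose and none fell after the poke with DMSO (median 0.53), against 18.2% and 13.4% of all genes, and 25 of 28 rose after NMDA in wild type (median 1.26), against 35.6% of all genes. With PLX3397 4 of 29 rose and 4 fell, shares below those of all genes (16.5% and 17.7%). Among those higher with PLX3397 were polr3a (0.88) and brf1a (0.81), and among those lower polr1d (-0.76) and polr1g (-0.58). The largest rises after the poke and after NMDA in wild type were those of bdp1, at 3.28 and 3.58, and polr3gla, at 2.22 and 3.06. Levels of bdp1 were low, with group means of 0.163 CPM in untreated uninjured and 1.81 CPM in DMSO libraries.

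The shares of all genes higher and lower, to be read beside the next counts, were 18.2% and 13.4% after the poke, 35.6% and 34.3% after NMDA in wild type, and 16.5% and 17.7% with PLX3397. Of 54 initiation factor genes 37 rose and 3 fell after the poke with DMSO (median 0.83), 46 rose and 4 fell after NMDA in wild type (median 1.60), and 29 fell and 3 rose with PLX3397 (median -0.47). The largest rises after the poke and after NMDA in wild type were those of eif3h, at 2.07 and 3.24, and eif4e1c, at 2.02 and 3.20. In the same comparisons eif4e2, a cap-binding protein that represses translation in mammals, fell by 0.71 and 0.90. After NMDA eif3b fell further, by 1.32, at low levels (group means 3.68 CPM uninjured and 1.48 CPM after NMDA). With PLX3397 eif3f fell by 1.12 and eif3m by 0.96, and the scaffold genes eif4g3 and eif4g1 rose by 0.99 and 0.71. Of the elongation and termination genes 20 of 27 rose and 2 fell after the poke (median 1.06), 21 of 26 rose and 4 fell after NMDA (median 2.16), and 19 of 27 fell with PLX3397 (median -0.79). The largest of these falls with PLX3397 were those of eef1g at -1.16 and tpt1 at -1.14. Among those that rose with PLX3397 were eef2a.2 at 0.72 and eef2a.1 at 0.60. After NMDA in wild type eef2b rose by 3.11 and abce1, which splits ribosomes after termination, by 2.91. In the same comparison eef1a2 fell by 2.97, at low levels (group means 3.37 CPM uninjured and 0.434 CPM after NMDA). The gene ENSDARG00000069951, which shares the symbol eef1a1 with another gene, fell by 2.26.

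Mitochondrial ribosomal protein genes, which serve the separate ribosome of mitochondria, rose after either injury and fell with PLX3397, with medians closer to 0 than those of the cytosolic set. Of 75 genes 45 rose and none fell after the poke with DMSO (median 0.51; 18.2% and 13.4% of all genes), and 67 fell and none rose with PLX3397 (median -0.73; 17.7% and 16.5% of all genes). All 75 rose after NMDA in wild type (median 1.19; 35.6% of all genes). With ZVAD-fmk 8 fell, a share near that of all genes (8.96%). Of the 13 mRNAs of mitochondrial DNA none was called after the poke (edgeR, with none at an unadjusted p under 0.05; this list was not run with DESeq2), all 13 fell with PLX3397 (median -1.24), 6 fell with ZVAD-fmk (median -0.81), and 2 rose and 2 fell after NMDA in wild type. Of 35 genes of the mTOR pathway 4 were higher and 10 lower after the poke (all genes 18.2% and 13.4%), and 11 higher and 12 lower after NMDA, which is near the shares of all genes (35.6% and 34.3%). The largest rise among them was that of rps6kb1a, a gene for S6 kinase, at 1.63 after the poke and 2.72 after NMDA in wild type. The largest falls were those of rragd at -1.39 and sesn3 at -1.12 after the poke. After NMDA in wild type they were those of sesn1 at -2.52 and deptor at -1.86.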

How the data were processed

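PolyA RNA of retina was sequenced in 30 libraries. The tools listed in the submitters' processing notes are RSEM 1.3.3, STAR 2.7.8a, FastQC 0.11.8 and cutadapt 4.8, with the build GRCz11. Their parameters and annotation release are not given in the sources used here. Each experiment has 1 deposited table of expected counts (estimated counts) per gene, given as whole numbers, unscaled and not pooled. The needle poke table has 9 columns that match no sample and were not used, and reporter transgene entries were left out. Symbols, 29201 of 32520 IDs, came from a table of names, ignoring letter case.

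All libraries of an experiment entered 1 fit with edgeR 4.0.16 (limma 3.58.1, R 4.3.3): filterByExpr by group, TMM scaling (factors 0.805 to 1.13 and 0.897 to 1.08), 1 mean per group, robust quasi-likelihood F test, two-sided, in 13 comparisons. P-values were adjusted by Benjamini-Hochberg over all genes kept, 21334 of 25975 and 20254 of 26728, and genes under 0.05 are called. "Rose" and "fell" are used of called genes. The biological coefficient of variation was 0.292 and 0.171. CPM use the TMM factors, and SE are those of the fit. No 2 libraries of a group were copies (lowest chi-square per degree of freedom 7.56). The fit was tested on simulated counts. Alternatives were other scalings, no filter, DESeq2 1.42.0, a replicate block, only the groups compared, and leaving out libraries.

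Per comparison the 5 highest and 5 lowest called genes without overlap are named, with paralog pairs, rps6, rpl5, rpl11, rplp0, rplp1, rplp2 and rps27a. For the lists of biogenesis, polymerase, initiation and elongation genes, names were drawn from the 2 highest and 2 lowest called in a comparison, and not all are given. Other named genes were chosen after their values were seen. The members and lists were chosen with earlier results of these data known. Of the list entries 411 matched by symbol, 83 without the paralog letter, and 37 did not match. Some genes of the set are counted but not reported by name here.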

Additional observations from a re-analysis of the deposited data

How the results depend on the processing

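The counts of 75 genes higher after the poke, 76 lower with PLX3397 and 76 higher with 1 lower after NMDA in each genotype stayed within 1 gene under all alternatives, and no direction of a named gene's call reversed. The count lower with ZVAD-fmk than with DMSO (16) was 5 with the replicate block, 38 with DESeq2, 34 with only the groups compared, 59 without the 4 libraries that stood apart, and 0 to 19 when 1 library was left out. The count lower with PLX3397 than with ZVAD-fmk (59) ranged from 3 to 76 when 1 library was left out. For uninjured csf1ra mutants the count higher (0) was 6 with library totals as scaling, 3 with DESeq2 and 0 to 69 without 1 library. For uninjured csf1rb mutants the count higher (3) was 1 with no filter, 18 with the replicate block, 33 with only the groups compared, and 0 to 1 without 1 library. For csf1ra mutants after NMDA the count higher (1) was 0 with library totals, 27 with the block, 13 with DESeq2, 30 with only the groups compared, and 0 to 4 without 1 library. For csf1rb mutants after NMDA the count higher (0) was 2 with only the groups compared, and the median (0.05) was -0.05 with library totals and -0.02 to 0.08 without 1 library. For the csf1ra interaction the count lower (0) was 1 with library totals, with the block and with DESeq2, and 0 to 1 without 1 library, and the median (-0.03) ran from -0.22 to 0.23. The cause of these shifts was not tested. Library totals as scaling moved the median of all genes by 0.14 after the poke and with PLX3397, by 0.10 with ZVAD-fmk, by -0.13 after NMDA in csf1ra mutants, and by -0.11 for these against wild type after NMDA and in the interaction. The share of calls that were higher then went from 57.7% to 71.2% after the poke, from 48.1% to 61.9% with PLX3397, from 52% to 68.7% with ZVAD-fmk, from 41.2% to 29.3% for csf1ra and from 51% to 39% for csf1rb mutants against wild type after NMDA, and from 43.9% to 27.5% in the csf1ra interaction. Correlations of deviations between same-numbered libraries were -0.13 to 0.15, which gave no sign of pairing by replicate number. With 3 libraries a group they cannot exclude pairing, and block values above only show how counts move. With 3 libraries a group, changes well above the standard errors given could also go uncalled. In uninjured csf1ra mutants rpl35a at 0.56 ± 0.20 (SE) was not called (edgeR adjusted p = 0.064).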
